A study of Mus musculus with 8 samples.

Results

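Collagen chains that do not belong to the basement membrane were taken from RNA sequencing of 8 libraries of TGF-β treated mouse kidney cells. Every row of the deposited gene table whose symbol had the form of a collagen chain was chosen, without the type IV chains, Col15a1 and Col18a1, which left 36 of 44 collagen genes and of 22274 genes in all. By the type of assembly they form, 11 of the 36 encode fibrillar chains, 9 fibril-associated chains with interrupted triple helices (FACIT), 6 beaded filament chains of type VI, 4 transmembrane chains and 3 network-forming chains. Col7a1, of the anchoring fibril, and 2 others, Col26a1 and Col28a1, make up the rest.

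Collagens are trimers of chains wound into a triple helix. Fibrillar chains are secreted as procollagens and laid side by side into the fibrils that give scar tissue its stiffness, with type V collagen in the core of fibrils of type I. FACIT chains sit on the surface of fibrils, type VI chains form a beaded microfilament around cells, and transmembrane collagens are held in the cell membrane. In the fibrotic kidney, TGF-β is the cytokine best known for raising fibrillar collagen synthesis by interstitial fibroblasts.

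The cells carry the label RFB and are given as fibroblasts of kidney. The ad-GFP group (n = 4) had TGF-β and an adenovirus labelled GFP, and the ad-CRE group (n = 4) had TGF-β and an adenovirus labelled CRE, the recombinase that removes DNA between loxP sites. Both groups had TGF-β, so no library shows the level without it. The design text speaks of knockdown of Suv39h1, a histone H3 lysine 9 methyltransferase. The floxed allele, the strain and age of the donor animals, the dose and time of treatment, and whether the line is a clone were not given in the sources used here. Nothing says that replicates were separate cultures, so a p-value here sets the groups against a spread between libraries that may be technical.

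Library totals were 15998257 to 22297598 counts. Levels are in CPM, counts divided by effective library size. Suv39h1 was at 41.5 ± 3.16 CPM with ad-GFP and 32.5 ± 0.795 CPM with ad-CRE (mean ± SD, n = 4), whereas Smarca4, which encodes the chromatin remodelling ATPase BRG1, was at 288 ± 11.1 and 34.3 ± 3.2 CPM, so the larger fall was not in the gene the series names. Across 13702 genes tested, 73.1% passed an adjusted p of 0.05 (edgeR quasi-likelihood test, Benjamini-Hochberg over all genes), 36.3% as lower and 36.8% as higher. Markers of other cell types were abundant: the summed level of 10 tubular epithelial markers was 2347 to 2593 CPM with ad-GFP and 5030 to 5204 CPM with ad-CRE, and that of 9 fibroblast markers was 1655 to 1733 CPM and 718 to 773 CPM. Vim made up most of the fibroblast sum, with means of 1614 CPM with ad-GFP and 693 CPM with ad-CRE. Of the fibroblast list 7 of 8 tested fell and 1 rose, none was at 0, and Tcf21 had too few reads to test. The 1 that rose was Pdgfra, with means of 3.79 CPM with ad-GFP and 4.85 CPM with ad-CRE. Of the epithelial list 6 of 10 rose, with Cldn4, Krt8, Cdh1 and Krt18 among them, 2 fell, and none was at 0. The 2 that fell were Cdh16 and Lrp2 (log2 fold changes of ad-CRE over ad-GFP of -0.66 and -0.55). All 8 endothelial markers fell, with summed levels of 168 to 180.1 CPM and 72.1 to 81.1 CPM. In the leukocyte list 4 of 5 tested fell, with sums of 124 to 150.01 CPM and 87.4 to 92.6 CPM and Cd3e at 0 reads. In the mural cell list 2 of 4 tested fell and 1 rose, with sums of 98.4 to 103 CPM and 103 to 116 CPM. That sum mixes opposite moves. The mean of Notch3 rose from 13.6 to 58.4 CPM, while Des fell from 44.6 to 13.8 CPM and Myh11 from 6.65 to 2.74 CPM. The part of these shifts in the collagen results was not tested. In bulk RNA, fewer cells of a type and less RNA per cell cannot be told apart.

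To show the control regions of genes that moved, the 250 bases before the transcription start of 4 chains that fell and of 1 that rose are printed, 5′ to 3′ on the strand of the gene (RefSeq, GRCm38.p6). Capitals mark the letters CAGAC on either strand, the core to which SMAD proteins, the transcription factors of TGF-β signalling, bind. The printed windows do not stand for all windows. That of Col5a3, which fell, holds no CAGAC, and that of Col11a1, which did not pass, holds 1. The windows lie at chr6:4505368-4505617 (plus strand) for Col1a2, chr1:45311288-45311537 (plus) for Col3a1, chr2:27886175-27886424 (plus) for Col5a1, chr16:57754738-57754987 (minus) for Col8a1 and chr4:126286544-126286793 (plus) for Col8a2. The Col1a2 window lies inside the GENCODE gene, which starts further upstream than the RefSeq start.
Col1a2: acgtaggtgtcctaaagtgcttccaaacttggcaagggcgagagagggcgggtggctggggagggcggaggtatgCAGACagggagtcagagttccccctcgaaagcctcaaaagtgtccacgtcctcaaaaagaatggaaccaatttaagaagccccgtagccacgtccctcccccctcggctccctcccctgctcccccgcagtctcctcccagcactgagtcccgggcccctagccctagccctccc
Col3a1: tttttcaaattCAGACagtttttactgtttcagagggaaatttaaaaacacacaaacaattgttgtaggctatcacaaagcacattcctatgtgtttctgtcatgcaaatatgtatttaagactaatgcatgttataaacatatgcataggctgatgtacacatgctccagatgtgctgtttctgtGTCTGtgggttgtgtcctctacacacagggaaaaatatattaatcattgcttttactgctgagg
Col5a1: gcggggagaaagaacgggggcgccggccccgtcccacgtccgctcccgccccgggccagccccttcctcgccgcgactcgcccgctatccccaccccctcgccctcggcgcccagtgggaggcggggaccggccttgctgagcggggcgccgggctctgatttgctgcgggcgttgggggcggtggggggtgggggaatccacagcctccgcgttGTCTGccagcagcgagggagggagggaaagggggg
Col8a1: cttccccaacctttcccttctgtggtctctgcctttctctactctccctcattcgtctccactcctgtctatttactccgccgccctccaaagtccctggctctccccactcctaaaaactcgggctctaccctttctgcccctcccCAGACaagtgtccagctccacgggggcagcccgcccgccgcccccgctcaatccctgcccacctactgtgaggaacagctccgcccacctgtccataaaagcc
Col8a2: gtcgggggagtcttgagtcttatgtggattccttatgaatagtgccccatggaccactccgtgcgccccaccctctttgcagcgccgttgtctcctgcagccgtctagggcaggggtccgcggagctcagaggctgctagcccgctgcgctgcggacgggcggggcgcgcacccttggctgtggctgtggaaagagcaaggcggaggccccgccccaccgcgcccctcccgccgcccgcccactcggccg

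Expression of this collagen set was lower in ad-CRE. The summed level of the 36 genes in FPKM, which scales reads by gene length and library size, was 204, 199, 210.5 and 197 across the ad-GFP libraries and 111, 114, 116 and 112 across the ad-CRE libraries, in order of replicate number. The groups did not overlap. Of the 36 genes, 23 had enough reads to test, of which 13 fell, 2 rose and 8 missed the threshold. The share that fell was 56.5%, where 36.3% of all genes tested fell, and the share that rose was 8.70%, against 36.8% of all genes. A fall of at least 1 log2 unit was called in 7 of the 23 (30.4%, against 9.43% of all genes) and a rise of that size in 1 (4.35%, against 4.84%). The 7 include Col9a3 and Col6a3, whose values have limits described below. Both were above the filter (0.516 CPM) in 4 ad-GFP libraries, but in only 2 and 3 ad-CRE libraries. The groups did not overlap in CPM in 14 of 23 (60.9%), which is near the 66.2% found over all genes. The median log2 fold change of ad-CRE over ad-GFP was -0.52 for the 23 genes and 3.9e-05 for all genes tested.

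**Figure D1:**
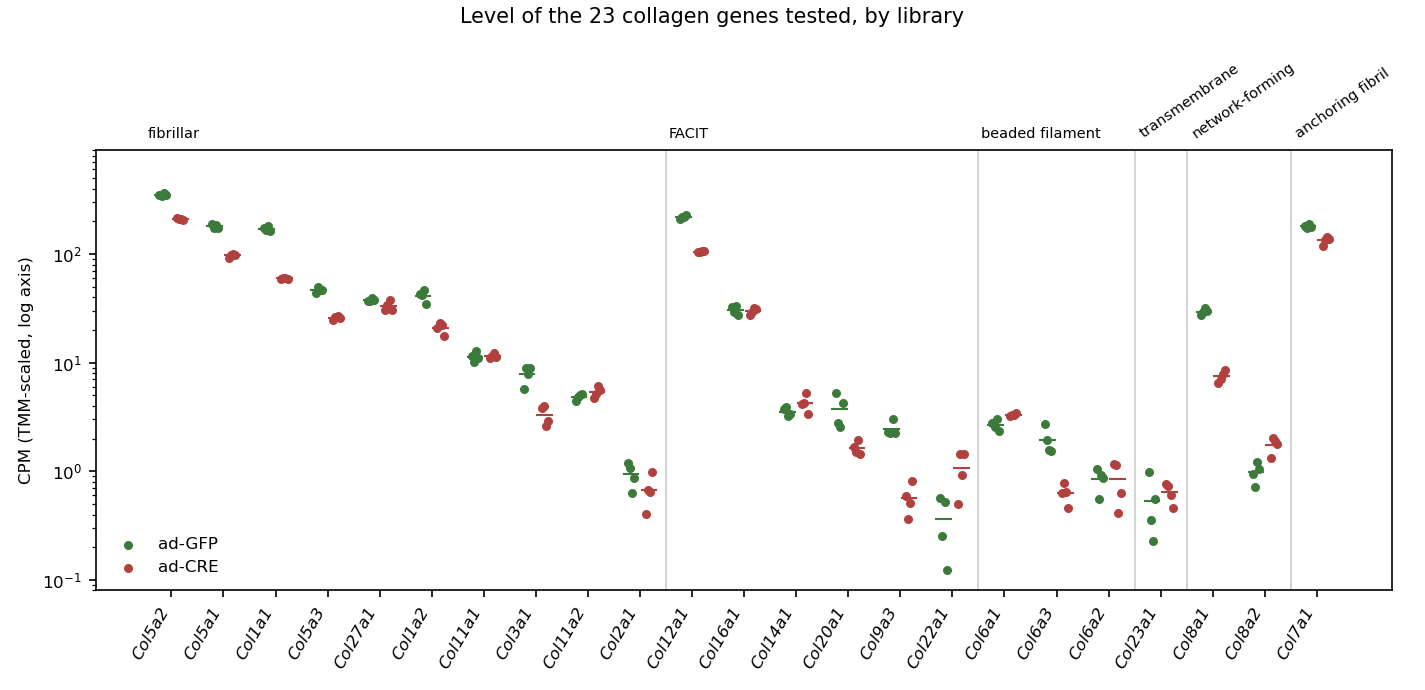
Level of each of the 23 collagen genes tested, in CPM on a log axis, with genes grouped by class and ordered by level. Each point is 1 library (green ad-GFP, red ad-CRE, n = 4 each) and each line a group mean. The genes of type I and type V collagen and Col12a1, Col8a1 and Col7a1 have separate groups, whereas Col27a1, Col11a1 and Col16a1 do not.

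Of the 15 calls, 7 were fibrillar genes and 4 FACIT genes. Among 10 fibrillar genes tested the test called 7 lower and 0 higher, and 3 missed the threshold (median log2 fold change -0.80). Among 6 FACIT genes 3 were called lower and 1 higher, with 2 short of the threshold (median -0.55). Only 1 of 3 beaded filament genes was called, as lower (median -0.0053), and the only transmembrane gene tested, Col23a1, did not pass (0.23). Both network-forming genes tested moved, in opposite directions. No test of the difference between classes was made, and the last 3 classes rest on 3, 1 and 2 genes.

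**Figure D2:**
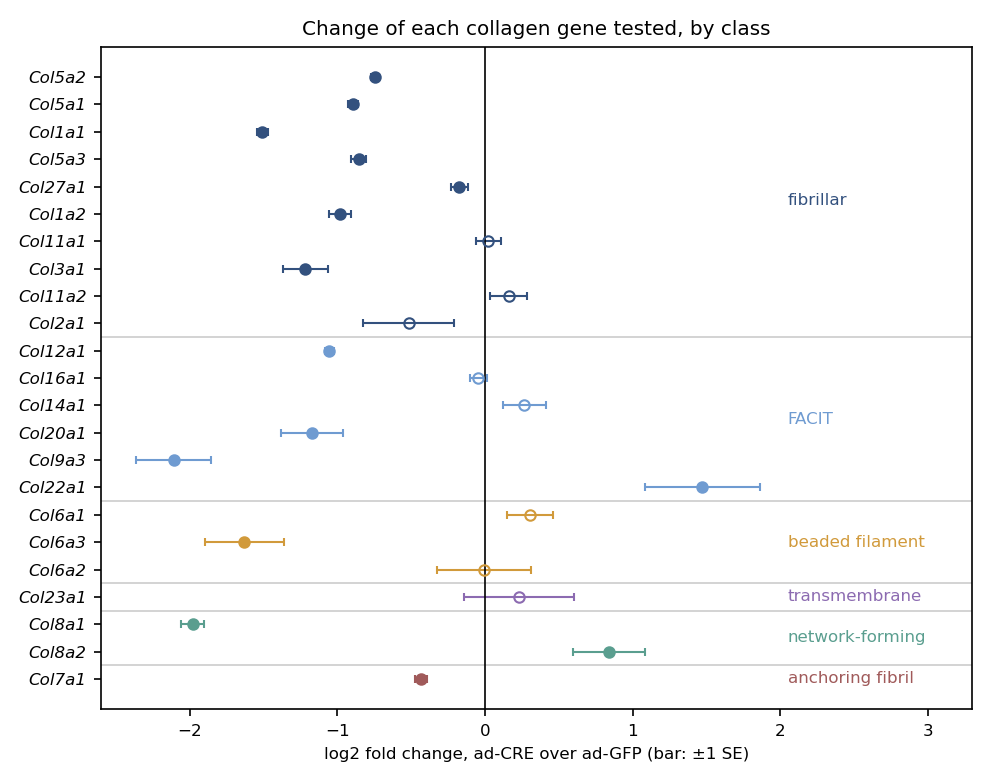
The log2 fold change of ad-CRE over ad-GFP for each gene tested, with bars of 1 SE, coloured by class. Filled points passed an adjusted p of 0.05 and open points did not. The 7 filled fibrillar points lie between -1.51 and -0.17, while filled FACIT points lie on both sides of 0, from -2.11 to 1.47.

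Type I collagen, the main fibril of scars, is built of more α1 than α2 chains. Its α1 chain gene Col1a1 (ENSMUSG00000001506, GRCm38 chromosome 11, 94936224 to 94953042, plus strand, protein-coding) stood at 173, 165, 180.2 and 161 CPM with ad-GFP and 58.9, 60.3, 60.8 and 58.7 CPM with ad-CRE. Every ad-CRE library lay far below every ad-GFP library, and Col1a1 fell to 0.351 of the ad-GFP mean (log2 fold change -1.51, SE 0.037, edgeR adjusted p = 1.78e-25). The α2 chain gene Col1a2 (chromosome 6, 4504814 to 4541544, plus strand), singled out as its partner, stood at 42.7, 41.6, 46.7 and 34.8 CPM with ad-GFP and 21.0, 22.998, 22.4 and 17.4 CPM with ad-CRE. Col1a2 fell by less, to 0.505 of the ad-GFP mean (-0.98, SE 0.073, adjusted p = 3.82e-13), and replicate 4 was lowest in each group.

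The balance of the 2 chains was read per length, as the ratio of FPKM. Col1a1 over Col1a2 was 3.64, 3.57, 3.48 and 4.18 in ad-GFP and 2.29, 2.36, 2.45 and 2.99 in ad-CRE, or 3.72 ± 0.313 against 2.52 ± 0.320 (SD, n = 4), with no overlap. With CPM divided by the summed exon length in GENCODE, the ratios were 7.81 and 5.45. The exons of all Col1a2 transcripts add up to 12426 bases against 5348 in its longest transcript, so the size of the ratio depends on the length used, while its direction between groups was the same.

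Col3a1 (chromosome 1, 45311538 to 45349706, plus strand) encodes the chain of type III collagen, which forms thin fibrils with type I. It was weakly expressed, at 5.68, 8.88, 7.78 and 8.88 CPM with ad-GFP and 3.85, 4.01, 2.59 and 2.88 CPM with ad-CRE. These groups did not overlap, and Col3a1 fell to 0.427 of the ad-GFP mean (-1.22, SE 0.152, adjusted p = 2.39e-08). Col5a2 lies 24615 bases from Col3a1 on the opposite strand, and it fell as well.

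Type V collagen starts fibrils, and its genes Col5a2 and Col5a1 had the highest FPKM of the set, with a limit on the length of Col5a1 given below. Col5a2 (chromosome 1, 45374321 to 45503282, minus strand) stood at 348, 345, 361 and 348 CPM with ad-GFP and 213, 209, 209 and 207 CPM with ad-CRE (-0.74, SE 0.026, adjusted p = 2.59e-21). Col5a1 (chromosome 2, 27886425 to 28039514, plus strand) stood at 187, 174, 187 and 173 CPM with ad-GFP and 91.9, 98.3, 100.2 and 97.4 CPM with ad-CRE (-0.89, SE 0.035, adjusted p = 3.09e-20). Both fell with tight, separate groups. Col5a3, the gene of a rarer type V chain, stood at 43.9, 49.3, 47.0 and 46.3 CPM with ad-GFP and at 24.5, 26.2, 26.8 and 25.7 CPM with ad-CRE (-0.85, SE 0.051, adjusted p = 1.61e-15). The 3 genes were at 0.597, 0.538 and 0.553 of their ad-GFP means, for Col5a2, Col5a1 and Col5a3 in turn. Col5a1 over Col5a2 in FPKM was 0.698 ± 0.0225 in ad-GFP and 0.623 ± 0.0226 in ad-CRE (SD, n = 4), with no overlap, whereas the libraries of the groups overlapped for Col5a3 over Col5a2 (0.144 and 0.134).

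**Figure D3:**
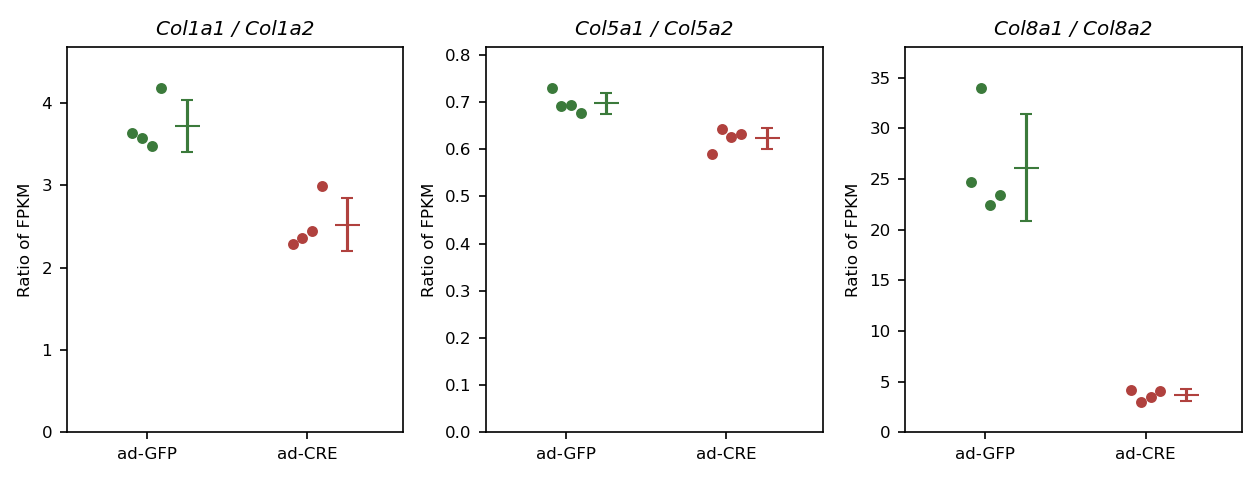
Ratio of FPKM between 2 chains of type I, type V and type VIII collagen, by library (points) with the mean and SD beside them (n = 4 per group), on axes that start at 0. These are the 3 of 5 ratios computed whose groups are separate, and the ratio of Col8a1 to Col8a2 shifts most, from a mean of 26.1 to 3.69.

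The remaining fibrillar genes changed by less or did not pass. Col27a1, whose chain is made by cartilage and some epithelia, stood at 36.7, 37.1, 39.7 and 37.4 CPM with ad-GFP and 30.4, 34.2, 38.1 and 30.7 CPM with ad-CRE. It fell by 0.17 on the log2 scale (SE 0.059, adjusted p = 0.00956), but ad-CRE replicate 3 lay among the ad-GFP libraries, and the call was lost without ad-CRE replicate 1 (adjusted p = 0.0632). Col11a1 and Col11a2, chains of type XI collagen, the cartilage counterpart of type V, had log2 fold changes of 0.02 (adjusted p = 0.83) and 0.16 (adjusted p = 0.244). The value for Col11a1 was below 0 with scaling by total counts only (-0.0064). Col2a1, of cartilage fibrils, was at 0.940 ± 0.242 CPM and 0.678 ± 0.234 CPM (SD, n = 4) and did not pass (-0.52, adjusted p = 0.129). Col24a1 had 7 reads in ad-GFP and 4 in ad-CRE and was not tested.

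Among FACIT genes, Col12a1, whose chain decorates type I fibrils in tissue under load, was the most abundant (chromosome 9, 79598991 to 79718831, minus strand). It stood at 209, 219.6, 219.6 and 227 CPM with ad-GFP and 104, 104, 107 and 107 CPM with ad-CRE. Col12a1 fell to 0.482 of the ad-GFP mean with no overlap (-1.05, SE 0.031, adjusted p = 2.6e-23). Col16a1, a FACIT chain of many connective tissues, stood at 32.6, 29.5, 33.4 and 27.6 CPM with ad-GFP and 27.7, 29.3, 31.6 and 31.2 CPM with ad-CRE. Its groups overlapped fully and it did not pass (-0.04, SE 0.060, adjusted p = 0.513). Col14a1, which like Col12a1 binds type I fibrils, was at 3.55 ± 0.308 and 4.26 ± 0.751 CPM (SD, n = 4) and did not pass (0.27, adjusted p = 0.105). Without ad-CRE replicate 4 it passed (0.36, adjusted p = 0.0350).

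The other FACIT genes tested were near or below 5 CPM. Col20a1 stood at 5.21, 2.81, 2.54 and 4.29 CPM with ad-GFP and 1.67, 1.51, 1.94 and 1.44 CPM with ad-CRE, and fell with no overlap (-1.17, SE 0.210, adjusted p = 1.19e-05). Col9a3, which encodes a chain of type IX collagen of cartilage, stood at 2.32, 2.25, 2.998 and 2.24 CPM with ad-GFP and 0.588, 0.364, 0.509 and 0.806 CPM with ad-CRE. It fell the furthest of the 23 (-2.11, SE 0.253, adjusted p = 1.16e-08), but its exons overlap those of Tcfl5 on the opposite strand (GENCODE M21). Tcfl5 had 189 reads in ad-GFP and 34 in ad-CRE against 181 and 45 for Col9a3, and fell by 2.57 on the log2 scale. Use of strand in counting was not given in the sources used here, and the value of Col9a3 is uncertain. Col9a3 and Col20a1 both lie on chromosome 2, on the same strand and 364346 bases apart.

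Col22a1, a FACIT chain of tissue junctions, was the only one of the 23 genes tested that rose by more than 1 log2 unit. It stood at 0.568, 0.255, 0.519 and 0.124 CPM with ad-GFP and 0.498, 1.46, 0.925 and 1.44 CPM with ad-CRE (1.47, SE 0.388, adjusted p = 0.00119). Its ad-CRE replicate 1 lay among the ad-GFP libraries, the values rest on 28 and 84 reads, and no rise was called from FPKM (adjusted p = 0.122 with 1 added before the log2, limma). Col9a1, Col9a2 and Col19a1 were not tested. Col9a2 had 4 reads in ad-GFP and 19 in ad-CRE.

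Type VI collagen is built of α1, α2 and α3 chains, with α4, α5 and α6 as relatives of α3. All 6 genes were at low levels, with a summed FPKM of 0.990 to 1.27 in ad-GFP and 1.13 to 1.73 in ad-CRE. Col6a1 and Col6a2, which lie 85162 bases apart on chromosome 10, did not pass (0.30, adjusted p = 0.0834, and -0.0053, adjusted p = 0.989), although the groups of Col6a1 did not overlap, with ad-CRE higher at 3.26 to 3.46 against 2.36 to 3.06 CPM. The ratio of Col6a1 to Col6a2 in FPKM was 3.24 and 4.66 in ad-GFP and ad-CRE, with overlap. Col6a3 stood at 2.75, 1.94, 1.56 and 1.55 CPM with ad-GFP and 0.633, 0.780, 0.648 and 0.461 CPM with ad-CRE. In counts it fell with no overlap (-1.63, SE 0.266, adjusted p = 2.69e-06).

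In FPKM no fall of Col6a3 was called (adjusted p = 0.609 with 1 added before the log2, limma). Its FPKM was 0.300, 0.220, 0.160 and 0.270 in ad-GFP and 0.07, 0.57, 0.09 and 0.05 in ad-CRE, with the highest value of all 8 in ad-CRE replicate 2, a library with 15 reads of the gene. The gene length implied by count and FPKM was 1357 bases in that library and 5788 to 9819 bases in the others, so the authors' count and FPKM of the gene were not in proportion across libraries. Col22a1 shows the same in ad-CRE replicate 4, with 1923 bases against 6251 to 9158 in the others. Over the 23 genes tested, the implied length varied by under 1.1 times in 12 and by over 1.5 times in these 2 only. The authors' deposited table gives a log2 ratio of -0.28 for Col6a3.

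**Figure D4:**
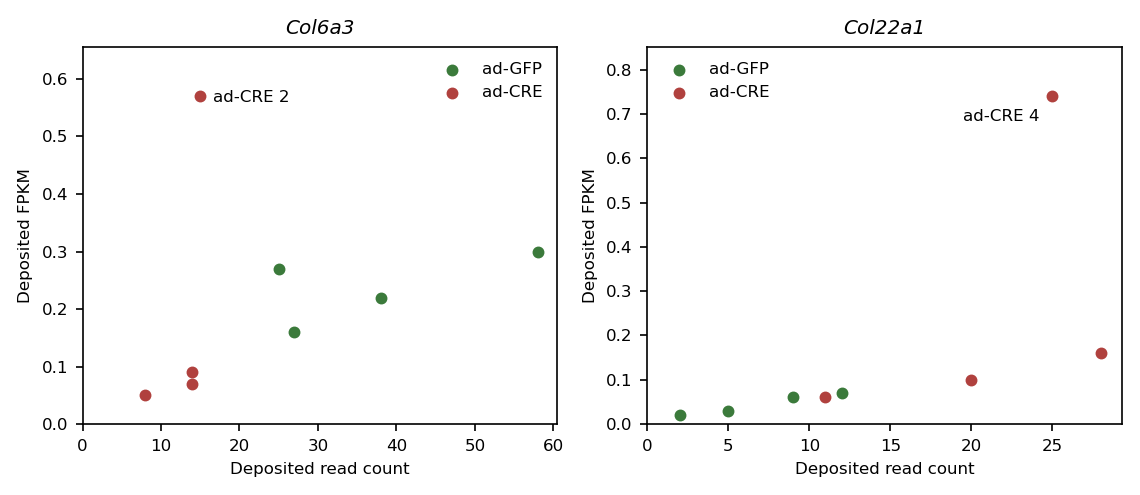
Deposited read count against deposited FPKM for Col6a3 and Col22a1, 1 point per library (green ad-GFP, red ad-CRE). In most libraries FPKM goes up with the count, whereas ad-CRE replicate 2 for Col6a3 (15 reads, FPKM 0.570) and ad-CRE replicate 4 for Col22a1 (25 reads, FPKM 0.740) lie far above the others.

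Col6a4, singled out after its values were seen, had too few reads to be tested, with 0, 0, 1 and 0 reads in ad-GFP and 15, 8, 15 and 10 reads in ad-CRE. Per library total, that is 43.5 times as many in ad-CRE, with an exact 95% interval from counting of 7.44 to 1754. Counting error alone enters that interval. Exons of Col6a4 overlap those of Gm47575 and Gm36993 on the opposite strand, so the limit given for Col9a3 holds for these reads as well. Count and FPKM of Col6a4 were also out of proportion, as 15 reads gave 0.30 FPKM in ad-CRE replicate 1 and 0.16 in replicate 3. With no filter beyond 1 read Col6a4 passed (edgeR adjusted p = 2.5e-08). Col6a4 was chosen for these same reads, so neither the interval nor this p-value is separate support for a rise. Its neighbours on chromosome 9, Col6a5 at 28811 bases and Col6a6, had 5 and 6 reads and 0 and 0 reads in ad-GFP and ad-CRE. The 0 reads of Col6a6 in 8 libraries allow a level of up to 0.0194 CPM.

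Transmembrane collagens were hardly detected in either group. Col17a1, the hemidesmosome collagen of basal epithelia, had 30 reads in ad-GFP and 12 in ad-CRE, Col25a1, known from neurons, 10 and 6, and Col13a1, of muscle and other cell contacts, 2 and 0. Only Col23a1 had enough reads to test, at 0.994, 0.357, 0.231 and 0.559 CPM with ad-GFP and 0.769, 0.728, 0.602 and 0.461 CPM with ad-CRE. The ad-CRE libraries lay within the range of ad-GFP, and a change was not detectable at this depth (0.23, SE 0.371, adjusted p = 0.583). The summed FPKM of the 4 genes was 0.210 ± 0.0812 in ad-GFP and 0.150 ± 0.0346 in ad-CRE (SD, n = 4).

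The network-forming chains of type VIII collagen, which underlie endothelium and appear in remodelled vessels, moved apart. Col8a1 (chromosome 16, 57624258 to 57754737, minus strand) stood at 27.5, 29.2, 31.8 and 29.7 CPM with ad-GFP and 6.51, 7.02, 7.82 and 8.64 CPM with ad-CRE. It fell to 0.254 of the ad-GFP mean (-1.98, SE 0.077, adjusted p = 3.38e-20). Its partner chain gene Col8a2, weakly expressed, stood at 0.947, 0.714, 1.21 and 1.06 CPM with ad-GFP and 1.31, 2.03, 1.90 and 1.79 CPM with ad-CRE, and rose with no overlap (0.84, SE 0.242, adjusted p = 0.00269). The ratio of Col8a1 to Col8a2 in FPKM was 22.4 to 33.9 in ad-GFP and 2.96 to 4.20 in ad-CRE. Col10a1, the collagen of growth plate cartilage, had 31 and 13 reads and was not tested.

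Col7a1 (chromosome 9, 108953586 to 108984875, plus strand) encodes the chain of the anchoring fibrils that tie epithelial basement membranes to the stroma. It stood at 181, 175, 187 and 179 CPM with ad-GFP and 118, 135, 145 and 136 CPM with ad-CRE, and fell with no overlap (-0.44, SE 0.040, adjusted p = 4.75e-11). Neither Col26a1, with 10 and 11 reads, nor Col28a1, with 12 and 12, was tested. With no filter beyond 1 read, 4 of the 13 genes left out above passed: Col10a1 (adjusted p = 0.0369) and Col17a1 (0.0331) as lower, Col6a4 and Col9a2 (0.0306) as higher. The exons of Col10a1 overlap those of Nt5dc1 on the opposite strand, so the limit given for Col9a3 holds for its reads as well. Exons of Col5a1, Col22a1 and Col6a6 also overlap genes on the opposite strand, which have no counts here.

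Read per length, the order of levels in ad-GFP began with Col5a2 (53.4 ± 1.11 FPKM, SD, n = 4), Col5a1 (37.2 ± 1.40), Col1a1 (28.9 ± 1.45), Col12a1 (19.8 ± 0.715) and Col7a1 (19.7 ± 0.564). The libraries of Col12a1 and Col7a1 overlapped, and so did those of each neighbouring pair among Col1a2 (7.83), Col5a3 (7.69), Col16a1 (7.07) and Col27a1 (6.73). In ad-CRE Col5a2 (31.3 ± 0.428) and Col5a1 (19.5 ± 0.533) still led, followed by Col7a1 (14.3 ± 1.16), Col1a1 (9.96 ± 0.169), Col12a1 (9.24 ± 0.152) and Col16a1 (6.72 ± 0.421). Col7a1 thus stood above Col1a1 in every ad-CRE library and below it in every ad-GFP library. In both groups Col5a2 and Col5a1 stood above both type I genes in FPKM, and Col3a1 stood at 1.54 ± 0.332 and 0.620 ± 0.161 FPKM. The length implied by count and FPKM for Col5a1 was 4834 to 5071 bases, against 8406 in its longest GENCODE transcript. The place of Col5a1 in these orders thus depends on the length used.

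Fibrillar genes held 71.9%, 72.5%, 72.5% and 71.5% of the summed FPKM in ad-GFP and 69.6%, 69.2%, 68.3% and 67.6% in ad-CRE. Their sum was 146 ± 4.90 FPKM against 77.8 ± 1.54 FPKM (SD, n = 4). FACIT genes held 14.4% ± 0.446 and 15.6% ± 0.729, beaded filament genes 0.561% ± 0.0531 and 1.21% ± 0.252, and transmembrane genes 0.104% ± 0.0411 and 0.132% ± 0.0299. The fibrillar and beaded filament shares did not overlap between groups, whereas the FACIT and transmembrane shares did. The share of Col7a1 was 9.61% to 9.86% in ad-GFP and 11.5% to 13.4% in ad-CRE. The beaded filament share includes the ad-CRE replicate 2 value of Col6a3 described above.

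**Figure D5:**
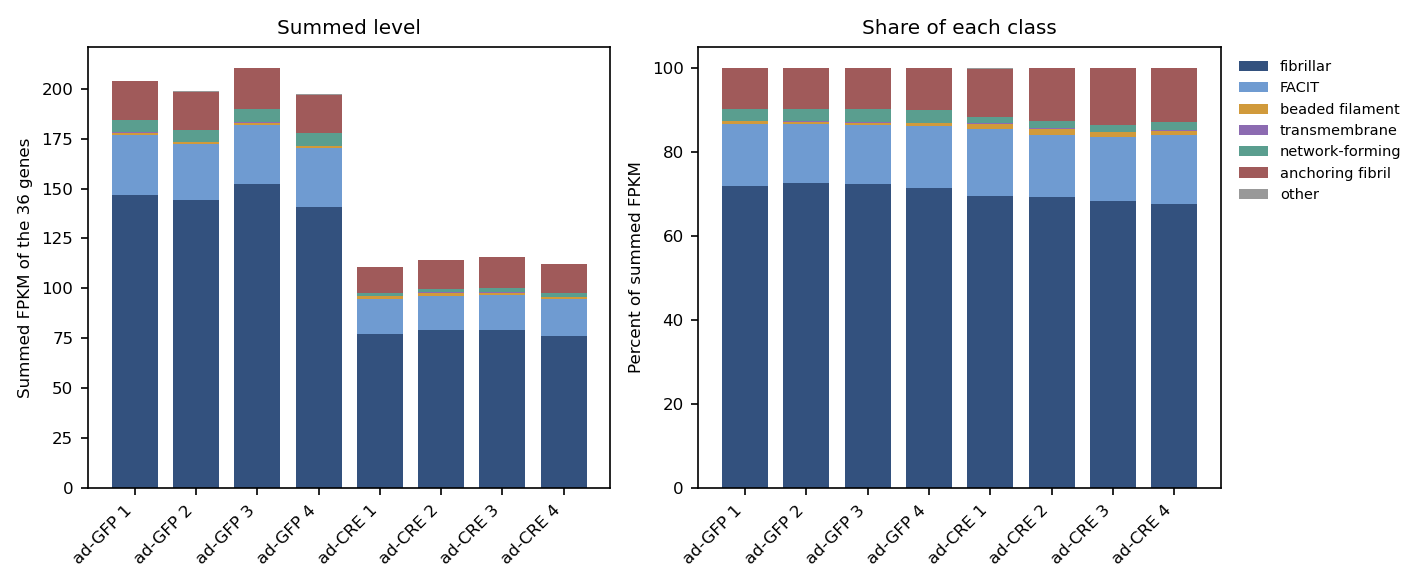
Summed FPKM of the 36 collagen genes (left) and the percent of that sum held by each class (right), with 1 bar per library. The sum is 197 to 210.5 FPKM in ad-GFP and 111 to 116 FPKM in ad-CRE, while the fibrillar share stays between 67.6% and 72.5% in all 8 libraries.

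Upstream windows of 250 bases were matched by symbol for 28 of the 36 genes, with a single RefSeq window kept per gene. Bases just after the start were found in a GENCODE transcript of the gene for 25 of the 28. Col11a2, tested and not called, was among those without a match. The window of Col27a1, which fell, lies inside the GENCODE gene, as that of Col1a2 does. Col1a1, Col5a2, Col12a1 and Col9a3 fell but had no window, so the windows cover 9 of the 13 genes that fell. The letters CAGAC were searched on both strands, and so were the TATA box (TATAAA), the NF-Y box read as CCAAT, the SP1 box read as GGGCGG and the AP-1 site read as TGANTCA. No match of one motif overlapped a match of another. CAGAC stood in 8 of 9 windows of genes that fell, 1 of 7 windows of genes tested that did not fall and 4 of 12 windows of genes not tested, against 42.1% of 27025 windows of all genes. GGGCGG stood in 6 of 9 and 6 of 7 windows (32.9% of all), CCAAT in 3 of 9 and 2 of 7 (34.5%), TATAAA in 1 of 9 and 1 of 7 (13.0%) and TGANTCA in 0 of 9 and 1 of 7 (6.87%). The printed windows differ widely in base composition, from 35.2% G and C for Col3a1 to 76.4% for Col5a1. The median over the 28 windows was 59.2%, against 52.0% over all. These are matches of letters, and no binding was measured.

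Genes that act on collagen were read from lists of their kind, beside 36.3% called lower and 36.8% called higher over all genes tested. Of the basement membrane collagens, 3 of the 8 were called lower and 3 higher (37.5% each, near the share over all genes; median 0.0057), with -0.60 for Col4a1, -0.64 for Col4a2 and 0.90 for Col18a1. Of 30 genes of collagen folding, modification and processing, 17 were called lower and 5 higher, with 8 short of the threshold (56.7% and 16.7%; median -0.26). Serpinh1, the collagen chaperone, fell by 0.92, P4hb, a subunit of prolyl 4-hydroxylase, by 0.35, the crosslinking oxidase Loxl2 by 0.74 and the procollagen protease Tll1 by 1.78 on the log2 scale. Of 9 collagen receptors 5 rose and 4 fell (55.6% and 44.4%; median 0.28): Itgb1, the β chain of collagen-binding integrins, rose by 0.44 and Ddr1 by 0.87, and Ddr2, a receptor of fibrillar collagen in mesenchymal cells, fell by 3.07.

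Among 6 genes of fibril-bound proteoglycans and glycoproteins, 3 were called lower and 1 higher (50% and 16.7%; median -0.52). Dcn, encoding the fibril proteoglycan decorin, went from 3.87 ± 0.373 to 0.362 ± 0.184 CPM (SD, n = 4), Bgn, encoding biglycan, fell by 0.89, and Fn1, on whose fibronectin collagen is laid, rose by 0.36. Collagen breakdown had 6 genes tested, 2 called lower and 1 higher (33.3% and 16.7%; median -0.061), with -1.47 for the gelatinase Mmp9, -3.01 for the protease Ctsk, 0.76 for the dipeptidase Pepd and -0.02 for the membrane protease Mmp14 (adjusted p = 0.537). Of 16 regulators of collagen genes 11 were called higher and 4 lower (68.8% and 25%; median 0.31). Sox9 and Runx2, factors of cartilage and bone, rose by 1.41 and 1.22, Rfx5 by 1.02, the TGF-β effector Smad3 by 0.40 and Ybx1 by 0.072. The 4 called lower were Nfyb (-0.76), Creb3l1 (-0.59), Rfx1 (-0.41) and Sox6 (-0.36). These counts do not separate activators of collagen genes from repressors.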

How the data were processed

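Per the labels' protocols, an RNeasy kit gave the RNA and a SMARTer mRNA kit the libraries. GRCm38 and mm10 are the builds named in the submitters' processing notes, and the aligner, counter, annotation and use of strand were not given in the sources used here. The authors deposited whole-number read counts per gene and FPKM values per library, with 2 decimals. They also deposited the mean FPKM per group, its log2 fold change, and p-values, which were not used. A positive FPKM stands beside 8 counts of 0 in 38 genes. Library totals of 15998257 to 22297598 counts set the precision.

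Counts were fitted over the whole table in R 4.3.3 with edgeR 4.0.16 (filterByExpr, TMM scaling, glmQLFit and glmQLFTest, group as the only term), with Benjamini-Hochberg adjustment over 13702 genes and a threshold of 0.05. CPM are counts divided by the TMM-scaled library size, and an SE is the log2 fold change divided by the square root of F. Of the 23 members tested, Col22a1, Col23a1, Col2a1, Col6a2, Col6a3 and Col9a3 had fewer than 4 libraries above the filter (0.516 CPM) in at least 1 group. Members and lists were chosen with earlier results of these data known, so lists carry counts and medians and no test. The rule for named genes gives values per library for members that changed by at least 1 log2 unit and for the 8 with the highest mean FPKM; of other lists it names at most the 3 smallest p-values and the 2 highest levels. Col1a2, Col8a2, Col23a1 and Col6a4 were added after their values were seen. So were the epithelial markers Cdh16 and Lrp2, the fibroblast marker Pdgfra and the regulators called lower.

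Alternatives were DESeq2 1.42.0 and its size factors, total-count scaling, no filter beyond 1 read, 5 CPM in 4 libraries, limma 3.58.1 on log2(FPKM + 1) and log2(FPKM + 0.1), the replicate number as a block, and leaving out each library. The fit was tested on simulated data. Coordinates are from GENCODE M21 (GRCm38) and upstream windows from RefSeq (GRCm38.p6); figures were drawn with matplotlib 3.10.9. Within a group, the chi-square of pairs of libraries over degrees of freedom was 1.71 to 3.24, so no library was counted as a duplicate.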

Additional observations from a re-analysis of the deposited data

Results flagged for a closer look

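In 74 groups of 4 libraries, 3 held a library far from the other 3 by Dixon's criterion. For single genes the criterion was run on CPM, and on FPKM only for Col6a3 and Col22a1. Those 2 are the genes whose count and FPKM were out of proportion, so the 3 cannot be set against a chance rate. The FPKM of Col6a3 in ad-CRE replicate 2 was 0.570 against 0.05 to 0.09 in the other ad-CRE libraries, and that of Col22a1 in ad-CRE replicate 4 was 0.740 against 0.0600 to 0.160. Neither library stood apart in the CPM of these genes. Col9a3 in ad-GFP replicate 3 was at 2.998 CPM against 2.24 to 2.32 CPM in the other ad-GFP libraries, above every ad-CRE library like the rest of its group.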

How the results depend on the processing

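Of the 15 collagen genes called, 12 kept their direction and their call under each alternative that tested them. The other 3 were Col6a3 and Col22a1, not called on either FPKM scale, and Col27a1, not called without ad-CRE replicate 1. The count that fell was 10 to 15 over the alternatives and 12 or 13 when 1 library was left out. The count that rose was 4 with no filter beyond 1 read, 0 with 5 CPM in 4 libraries, where fewer genes are tested, 1 on each FPKM scale, and 2 or 3 when 1 library was left out. The fibrillar median was -0.88 with 5 CPM in 4 libraries, -0.70 on log2(FPKM + 1) and -0.81 to -0.79 when 1 library was left out. The FACIT median was -0.064 with no filter and -0.24 on log2(FPKM + 1). With no filter, which adds genes of few reads, the beaded filament median was 0.15 and the transmembrane median -1.10; when 1 library was left out they lay between -0.23 and 0.23 and between -0.0038 and 0.76, so neither has a stable sign. Genes near 0 changed sign: Col11a1 was at -0.0064 with total counts, -0.0036 with 5 CPM in 4 libraries, -0.022 on log2(FPKM + 1), -0.033 on log2(FPKM + 0.1) and -0.028 to 0.080 when 1 library was left out, and Col6a2 at 0.0092 with no filter and -0.23 to 0.23. The ratio of Col1a1 to Col1a2 was 7.81 in ad-GFP and 5.45 in ad-CRE per exon base. With 5 CPM in 4 libraries no beaded filament or transmembrane gene was left.

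The replicate numbers do not show pairing (correlations of same-numbered deviations of -0.11 to 0.10, and 1 of 4 ad-GFP libraries correlated best with its own number). With the replicate block 13 genes fell and 2 rose, as without it. Genes under about 1 CPM rest on few reads per library, so changes of moderate size may have been missed there.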
